A study of Mus musculus with 3 samples.

Results

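The Hox clusters of the mouse were examined for ubiquitinated histone H2A (H2AK119ub) in tongue epithelium, together with the 2 Evx genes at their ends. The 40 members were 38 Hox genes of the Hoxa, Hoxb, Hoxc and Hoxd clusters, with Evx1 beside Hoxa and Evx2 beside Hoxd. A region counted as a member when its gene names held 1 of these genes or when it overlapped the bounds of 1. This gave 6 of 7838 regions in replicate 1 and 7 of 8093 in replicate 2. All 40 genes had an entry in the reference, which lists 21631 protein-coding genes outside the Y chromosome. The libraries came from EpCAM-sorted tongue epithelial cells of control mice at postnatal day 0, from tongues without the circumvallate papillae. There were 2 H2AK119ub libraries, described by the submitters as biological replicates, and an input library that is not used here. The labels give the genotype as control and name no allele or strain. The lists give a position, a location class and gene names per region, with no height or count, so sequencing depth is unknown. Because the libraries form 1 group, the values below are described with the spread of the replicates and no test was made.

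Hox genes encode homeodomain transcription factors that give cells their position along the body axis. Within a cluster the genes lie in the order in which they are used, so that low-numbered genes mark the anterior end and high-numbered genes the posterior end. The Evx genes are related homeobox genes that lie beyond the posterior end of Hoxa and of Hoxd. Polycomb repressive complex 1 places ubiquitin on a lysine near the end of histone H2A through its RING1 subunits, and Hox clusters are the classical targets of Polycomb silencing in tissues where a gene is not used. H2AK119ub is a measure of chromatin and not of expression, so a covered gene is not thereby shown to be silent.

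At 3 cluster ends with a sequence entry for both genes, the promoter of the outermost gene was covered in both replicates and the next protein-coding gene had no region over its promoter or any of its length in either. These 3 pairs are shown because each spans a domain edge. The pairs are Evx1 and Hibadh at the posterior end of Hoxa, Evx2 and Lnpk at the posterior end of Hoxd, and Hoxd1 and Mtx2 at the anterior end of Hoxd. Further regions lay beyond the edge between Evx1 and Hibadh in both replicates and between Hoxd1 and Mtx2 in replicate 1. Each sequence is the 250 bases before the transcription start, from RefSeq for GRCm38.p6, read 5′ to 3′ on the strand of the gene, with CpG dinucleotides in capitals. The windows are chr6:52313248-52313497 on the plus strand for Evx1, chr6:52640301-52640550 on the minus strand for Hibadh, chr2:74659558-74659807 on the minus strand for Evx2, chr2:74578949-74579198 on the minus strand for Lnpk, chr2:74762730-74762979 on the plus strand for Hoxd1 and chr2:74825562-74825811 on the plus strand for Mtx2.
Evx1: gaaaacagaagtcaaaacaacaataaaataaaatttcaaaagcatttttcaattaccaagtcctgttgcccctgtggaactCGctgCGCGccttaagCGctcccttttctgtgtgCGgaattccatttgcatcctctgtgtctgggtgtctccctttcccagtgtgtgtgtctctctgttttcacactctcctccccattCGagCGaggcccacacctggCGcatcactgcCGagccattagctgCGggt
Hibadh: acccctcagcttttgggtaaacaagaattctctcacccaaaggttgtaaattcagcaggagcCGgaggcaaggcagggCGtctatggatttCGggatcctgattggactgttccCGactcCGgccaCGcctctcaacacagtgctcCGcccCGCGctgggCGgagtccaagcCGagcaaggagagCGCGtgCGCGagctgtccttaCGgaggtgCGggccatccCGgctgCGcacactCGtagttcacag
Evx2: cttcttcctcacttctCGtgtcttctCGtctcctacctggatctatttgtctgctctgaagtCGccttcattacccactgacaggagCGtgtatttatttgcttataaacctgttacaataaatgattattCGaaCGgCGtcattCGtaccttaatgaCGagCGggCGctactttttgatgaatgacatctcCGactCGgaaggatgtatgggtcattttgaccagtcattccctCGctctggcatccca
Lnpk: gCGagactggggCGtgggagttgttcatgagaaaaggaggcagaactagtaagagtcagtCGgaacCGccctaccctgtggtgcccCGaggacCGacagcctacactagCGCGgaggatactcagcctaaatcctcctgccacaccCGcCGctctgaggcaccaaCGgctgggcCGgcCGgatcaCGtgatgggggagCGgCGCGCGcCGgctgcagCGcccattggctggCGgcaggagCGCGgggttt
Hoxd1: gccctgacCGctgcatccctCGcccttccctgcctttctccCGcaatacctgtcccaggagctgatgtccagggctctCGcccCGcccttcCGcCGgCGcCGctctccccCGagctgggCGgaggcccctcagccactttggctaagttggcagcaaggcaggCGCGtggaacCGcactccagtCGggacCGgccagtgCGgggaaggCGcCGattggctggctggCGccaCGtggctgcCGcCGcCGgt
Mtx2: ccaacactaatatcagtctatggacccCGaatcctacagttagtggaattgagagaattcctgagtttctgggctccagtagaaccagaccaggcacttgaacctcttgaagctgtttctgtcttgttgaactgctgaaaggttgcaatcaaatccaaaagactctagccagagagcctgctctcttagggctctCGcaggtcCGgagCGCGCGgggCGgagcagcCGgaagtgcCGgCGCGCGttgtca
The covered windows of Evx1, Evx2 and Hoxd1 hold 10, 14 and 24 CpG, and the uncovered windows of Hibadh, Lnpk and Mtx2 hold 20, 23 and 12. Covered and uncovered promoters therefore overlapped in CpG number. The Hoxd1 window ended 10.2 kb inside the domain edge in replicate 1 and 8.77 kb inside it in replicate 2, while the Mtx2 window began 52.4 and 53.8 kb outside it. The Hibadh window lay much farther out, 307 and 314 kb from the Hoxa edge.

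All 40 members were named by a promoter region in both replicates, against 8.82% of protein-coding genes (12.8% in replicate 1 and 12.4% in replicate 2, taken alone). Any overlap in both was found for 13.3% of coding genes. All 40 also lay wholly inside called regions in both replicates, against 1.89% of protein-coding genes and 20.5% of those named by a promoter region in both. For single replicates the share of coding genes covered in full was 2.76% in replicate 1 and 2.58% in replicate 2, and 3.66% were covered over at least 50% of their length in both. Member genes are short, with a median length of 3776 bp against 17480.5 bp for the other genes named by a promoter region in both, and short genes are more easily covered from end to end. The longest member, Hoxa3, a gene needed for thymus and parathyroid development, is annotated over 44009 bp and was also covered in full in both replicates. The part of gene length in the difference was not tested. Each member lay in 1 region per replicate. Genes of a cluster share a region, so the 40 genes are not independent observations. Counted by region, they lay in 6 regions in replicate 1 and 6 in replicate 2, beside 1 further region of replicate 2 named for Hoxd13 that covers no member.

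The Hoxc domain, which holds 9 members, was a single stretch in both replicates. On chromosome 15 it ran from 102887225 to 103071523 in replicate 1. Its limits in replicate 2 were 102891630 and 103071114, and 100% of the 115.7 kb from Hoxc13 to Hoxc4 was covered in each. Hoxc13, a regulator of hair and nail keratin genes whose activity has also been described in the filiform papillae of the tongue, lay 33.9 kb inside the edge in replicate 1 and 29.5 kb inside it in replicate 2. Hoxc9, a gene of the thoracic axis, lay deepest, 87.1 and 85.4 kb from the nearest edge. Hoxc4, at the anterior end, lay 34.7 and 34.3 kb from it. The other 6 members lay 45.2 to 79.6 kb inside over both replicates.

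The Hoxa domain held 11 members and the widest region of replicate 1. In replicate 1 a region of 192 kb on chromosome 6 ran from 52141365 to 52333041 without a break. In replicate 2 the same stretch was called as 2 regions, of 157 kb from 52143182 to 52300442 and of 24.4 kb from 52302249 to 52326651, with a break of 1807 bp between them. The break lay in the 52.6 kb without a coding gene between Hoxa13, a gene of digit and urogenital development, and Evx1, a gene of spinal interneurons. No annotated gene lay in the break. Coverage from Hoxa2 to Evx1 was 100% in replicate 1 and 98.8% in replicate 2. Hoxa2, which patterns the second pharyngeal arch, lay 21.1 and 19.2 kb inside the anterior edge. Evx1 lay 14.7 and 8.26 kb inside the posterior edge.

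The Hoxd domain held 10 members and was the narrowest. Its edges spanned 132 kb on chromosome 2 in each replicate. They were 74641419 and 74773198 in replicate 1, against 74639809 and 74771747 in replicate 2. Each replicate had a single short break at a different place. In replicate 1 it measured 1010 bp and fell in Haglr, a long noncoding gene between Hoxd3 and Hoxd1, which separated a region of 13.7 kb around Hoxd1. In replicate 2 it measured 1054 bp and fell outside the genes, before Evx2, which separated a distal region of 4.24 kb. The shortest gaps anywhere were 1000 bp in the list of replicate 1 and 999 bp in that of replicate 2, so these breaks lie near the shortest gap that the lists hold. Hoxd1 was the member nearest to an edge, at 3.49 kb in replicate 1, measured to the break, and 6.61 kb in replicate 2. Hoxd13, a gene of digit development, lay 26.8 and 23.1 kb inside, and Evx2, a limb and nervous system gene, 11.6 and 7.89 kb inside.

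The Hoxb cluster was the only 1 of the 4 with a break that both replicates placed within the same pair of genes. Hoxb13, a gene of the tail and the prostate, lay in a region of 58.9 kb in replicate 1 and of 45.6 kb in replicate 2, apart from the region of 136 and 131 kb over Hoxb9 to Hoxb1. The gap ran on chromosome 11 from 96210426 to 96246587 in replicate 1 (36.2 kb) and from 96210288 to 96246056 in replicate 2 (35.8 kb). Its limits differed by 138 and 531 bp between the replicates. In replicate 2 the gap held 2 further regions of 8.07 kb in sum beside the Hoxb13 side, and 23.5 kb from 96222598 to 96246056 was free of regions in both. No annotated gene lay in the gap. The region on the other side of it started 24.7 and 25.3 kb before Hoxb9 and took in the noncoding gene Gm53 and the microRNA gene Mir196a-1. As a result, 51.6% of the 74.7 kb between Hoxb13 and Hoxb9 was covered in replicate 1 and 62.9% in replicate 2, whereas the 52.6 kb between Hoxa13 and Evx1 were covered to 100% and 96.6%. Of the 30 stretches between neighbouring members, with a median of 4.01 kb, 27 were covered in full in both replicates.

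By the median pooled over all clusters, members in the middle paralog groups lay deepest inside their regions, by a small margin in replicate 1. Those of paralog groups 5 to 8 lay at a median of 56.9 kb from the nearest edge in replicate 1 and 58.6 kb in replicate 2. Those of groups 1 to 4 lay at 28.7 and 25.9 kb, those of groups 9 to 13 at 53.0 and 42.4 kb, and the 2 Evx genes at 13.1 and 8.07 kb. Over all members the median was 44.5 and 41.1 kb. The deepest member was Hoxa10, a gene of the uterus and hindlimb, in replicate 1 (89.8 kb) and Hoxc9 in replicate 2 (85.4 kb). Within single clusters the pooled order did not hold throughout. The deepest members per cluster in replicate 1 were Hoxa10, Hoxb4, Hoxc9 and Hoxd9, none of groups 5 to 8. In replicate 2 they were Hoxa9, Hoxb5, Hoxc9 and Hoxd8. The break beyond Hoxa13 moved the posterior Hoxa genes nearer to an edge in replicate 2: Hoxa13 lay at 72.2 kb in replicate 1 and 39.6 kb in replicate 2, and Hoxa11, a gene of the forearm and kidney, at 87.2 and 54.6 kb. These depths follow from the position of genes within long regions and say nothing of signal strength.

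**Figure D1:**
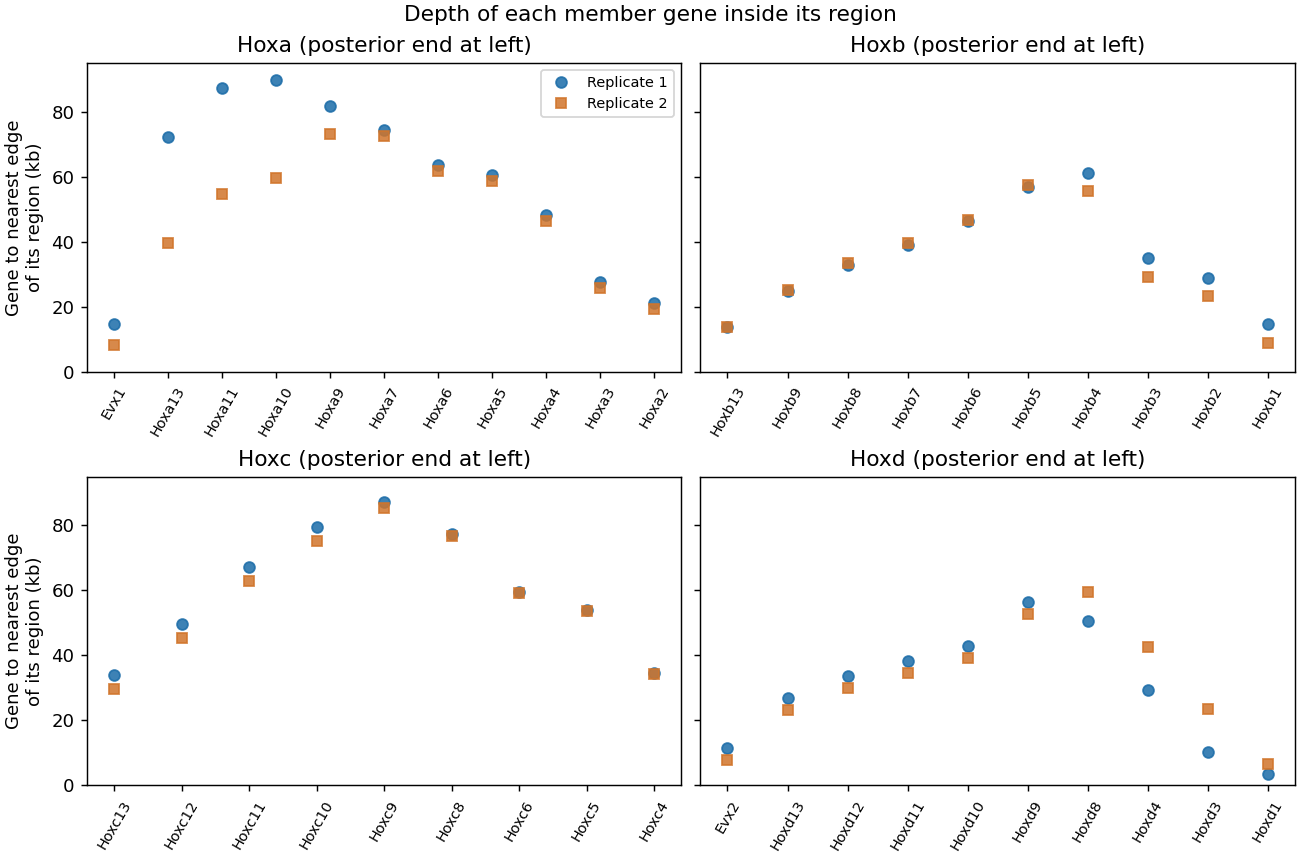
Distance in kb from each of the 40 members to the nearest edge of its region, ordered by paralog group, for replicate 1 (circles) and replicate 2 (squares). Values in replicate 1 run from 3.49 kb at Hoxd1 to 89.8 kb at Hoxa10, and the replicates part most at Hoxa10, Hoxa11 and Hoxa13.

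Transcription starts were available for 24 of the 40 members in the RefSeq promoter table. All 24 starts lay inside a region in both replicates, against 5.27% of the protein-coding genes in that table and 60.7% of those named by a promoter region in both. The start nearest to an edge was that of Hoxd1, at 3.49 and 8.77 kb. In the table the Hoxa starts were on the minus strand and those of the Hoxb, Hoxc and Hoxd genes on the plus strand, while Evx1 and Evx2 were read the opposite way to the cluster beside them.

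In width, 4 of the 6 regions of at least 100 kb in replicate 1 (0.0766% of the list) and 4 of the 5 in replicate 2 (0.0618%) were member regions. They ranked 1, 2, 4 and 5 in each list, at Hoxa, Hoxc, Hoxb and Hoxd in replicate 1 and at Hoxc, Hoxa, Hoxb and Hoxd in replicate 2. The Hoxb13 region ranked 16 and 28. The separate Evx1 region of replicate 2 ranked 244, the Hoxd1 region of replicate 1 ranked 1120, and the distal region of replicate 2 named for Hoxd13 ranked 4031, close to the list median of 4219 bp. Member regions made up 0.0766% and 0.0865% of the regions but 1.17% and 1.27% of the covered length. They also held many genes: the Hoxa region of replicate 1 contained 12 whole protein-coding genes, 11 of them members, and carried 22 gene names. Outside the members only 2 regions per list contained at least 5 whole protein-coding genes. One of these, in both replicates, contained 12 genes of the array that includes the interferon gene Ifnz within 37.8 and 39.4 kb, so that a high gene number was not limited to Hox clusters.

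**Figure D2:**
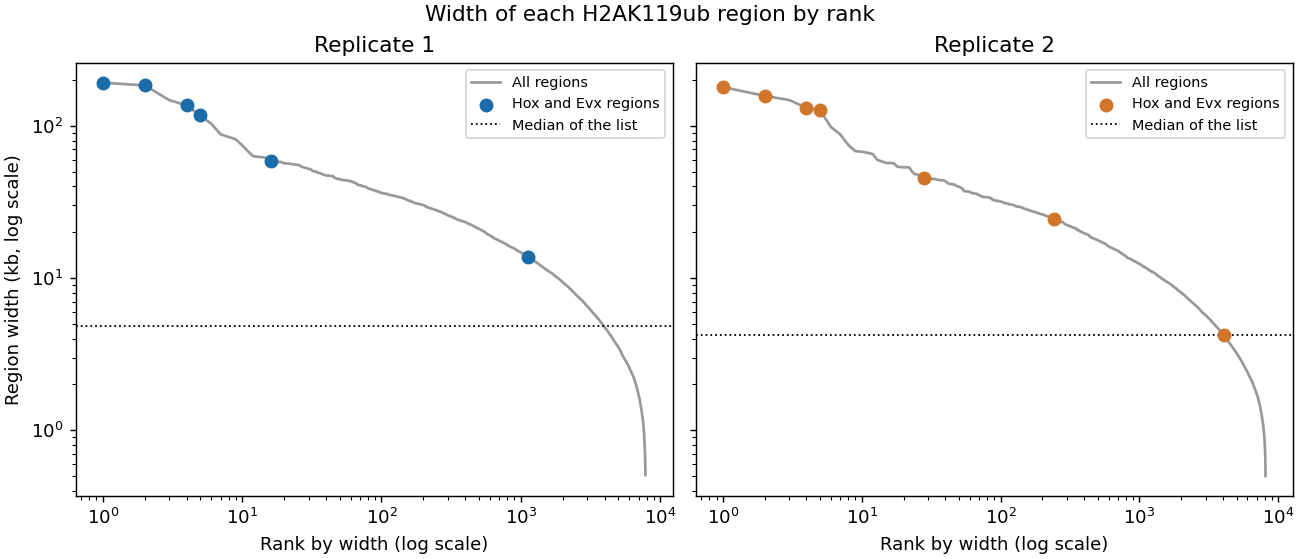
Width in kb of every region (grey line) by its rank, on log axes, with member regions as points and the list median as a dotted line. In each replicate 4 member regions rank 1, 2, 4 and 5, and the narrowest, in replicate 2, sits close to the median of 4219 bp.

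With edges set by the member rule, the replicates placed the Hox edges less closely, in kb, than the edges of other promoter regions. The difference between the replicates over the 8 edges had a median of 3.11 kb and ranged from 0.409 kb at the anterior edge of Hoxc to 13.1 kb at the posterior edge of Hoxb, and 5 of the 8 differed by less than 5 kb. Over 1607 other promoter regions with a single partner in the other list, the edges differed by a median of 1.25 kb, with quartiles of 0.376 and 2.90 kb. The Hox median lay above the upper of these quartiles. The 2 sets differ in region width and in how edges were chosen, and no test of the difference was made. The Hox edges depend on which neighbouring regions counted as members. Past Evx1 in replicate 2, a region of 3.22 kb named for Evx1os, 1.03 kb from the edge, was left out. Past Evx2 in replicate 2, the region of 4.24 kb named for Hoxd13 was counted. At the posterior edge of Hoxb, replicate 1 reached 42.8 kb beyond Hoxb13 and replicate 2 reached 29.7 kb. The posterior edges of Hoxa differed by 6.39 kb and those of Hoxd by 1.61 kb. At the anterior edges, the domain extended beyond its last member by 14.5 and 8.94 kb past Hoxb1, by 34.7 and 34.3 kb past Hoxc4 and by 8.06 and 6.61 kb past Hoxd1. Of the length covered by member regions, 94.8% (Hoxa), 90.4% (Hoxb), 97.4% (Hoxc) and 98.1% (Hoxd) of replicate 1 was shared with replicate 2, and 100%, 99.7%, 100% and 98.0% of replicate 2 was shared with replicate 1. Over the whole lists these shares were 54.1% and 61.5%. Most regions of the lists are far narrower, with medians of 4864 and 4219 bp, and the part of width in this difference was not tested.

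What lay beyond the edges differed between clusters. Around Hoxd there was almost nothing. On the Evx2 side no region lay within 200 kb in either replicate, and the next was 336 kb away in replicate 1 and 856 kb away in replicate 2. On the Hoxd1 side 2 small distal regions named for Haglr covered 3.33% of the next 200 kb in replicate 1, and none did in replicate 2, where the next region was 376 kb away. The Evx1 side of Hoxa was sparse next to the remaining edges, with 4.97% of 200 kb covered in replicate 1 and 5.998% in replicate 2. Both values lay above the share covered by the list as a whole, given below. In replicate 2 a region began 1.03 kb past this edge. The other 5 edges led into further regions. In the 200 kb beyond Hoxb1 coverage was 56.7% and 39.5%, beyond Hoxc4 it was 53.4% and 35.1%, and beyond Hoxc13 it was 47.4% and 36.5%. It was 37.3% and 29.5% beyond the anterior Hoxa edge and 27.8% and 19.2% beyond the Hoxb13 edge. Each list as a whole covered 2.299% and 2.02% of the gene-bearing span of the chromosomes. Replicate 1 gave the higher value at each of these 5 edges, and it also covered more of the genome. The 5 edges and the 3 sparse edges were set apart on these same values, so the lack of overlap between them only describes the grouping.

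**Figure D3:**
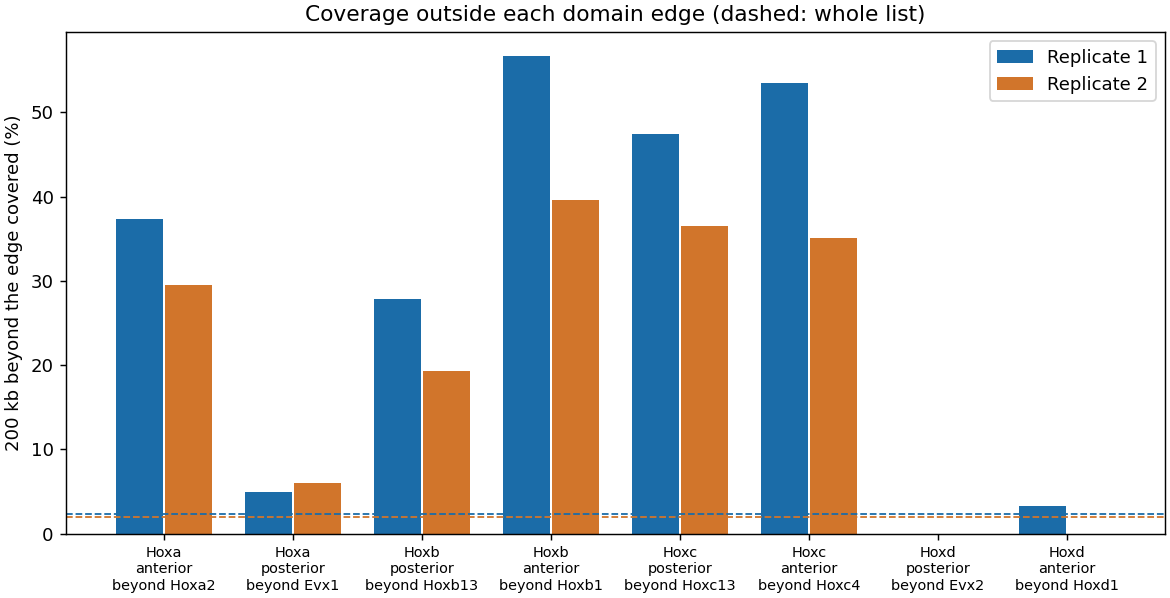
Share (%) of the 200 kb outside each of the 8 domain edges that regions covered in replicate 1 (blue) and replicate 2 (orange), with the share of the gene-bearing genome covered by each list as dashed lines. The Evx1, Evx2 and Hoxd1 sides lie at 0 to 5.998%, and the other edges at 19.2 to 56.7%.

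The nearest protein-coding gene with no region over it in either replicate stood at a different distance on each side. Over all coding genes, 77.1% had no region in either replicate. On the Hoxd sides these were the adjacent genes, Mtx2, which encodes a mitochondrial import protein, at 52.6 and 54.1 kb from the edge, and Lnpk, which shapes endoplasmic reticulum junctions, at 62.0 and 60.4 kb. Beyond Evx1 it was again the adjacent gene, Hibadh, an enzyme of valine breakdown, at 213 and 220 kb. Beyond Hoxc13 it was the adjacent Calcoco1 at 165 and 169 kb. On the remaining 4 sides marked genes came first. Beyond Hoxc4 lay the DNA repair gene Smug1, and the first free gene was Cbx5, which encodes heterochromatin protein HP1 alpha, at 120.02 and 120.43 kb. Beyond Hoxb13 came Ttll6, a tubulin-modifying enzyme gene that the replicate 1 and replicate 2 domains overlapped by 14.6 and 1.54 kb, and then the autophagy receptor gene Calcoco2. The first free gene there was Atp5g1, an ATP synthase subunit gene, at 75.9 and 88.9 kb. Ttll6 was not named by a promoter region in either replicate, so by that measure it would itself be the first unmarked gene.

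The adaptor protein genes Skap2 and Skap1 were the first coding genes beyond the anterior ends of Hoxa and Hoxb. Skap2 spans 153 kb and was overlapped by 4 regions in replicate 1 and 6 in replicate 2, which covered 47.2% and 51.6% of it. Skap1 spans 295 kb and was overlapped by 11 and 10 regions, which covered 37.2% and 30.4% of it. Both genes were also named by promoter regions in both replicates. Beyond Skap2, the sorting nexin gene Snx10 was covered to 9.83% in replicate 1 and 0.335% in replicate 2 and named by a promoter region in replicate 1 alone. The first free genes on these sides were Cbx3, which encodes HP1 gamma, at 658 and 659 kb from the Hoxa edge, and Snx11, a related gene, at 385 and 390 kb from the Hoxb edge. At Skap2 the promoter region stopped inside the gene, 0.513 and 0.466 kb short of the listed transcription start. At Smug1 the promoter region began 0.600 and 0.392 kb upstream of the listed start and did not cover it.

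The domains also hold 35 noncoding genes or pseudogenes. They were taken because they lie within the outer edges, so only a gene at a break could be left uncovered, and their coverage is a description of the domains. In both replicates 34 were covered in full, beside 1.92% of all noncoding genes and pseudogenes, and the exception was Haglr at 93.0% in replicate 1. The authors' names listed 22 of the 35 in promoter regions of both replicates, beside 1.22% of all noncoding genes and pseudogenes. Among them were Hottip and Hotair, long noncoding RNAs of the posterior Hoxa and Hoxc genes, and Hotairm1 at the anterior end of Hoxa. All 6 microRNA genes of the clusters were covered in full and named in both replicates. Their main mature forms, from RefSeq for GRCm38.p6, are shown with the seed (bases 2 to 8) in capitals because they fall into 3 seed groups across clusters.
miR-10a-5p: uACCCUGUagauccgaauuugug
miR-10b-5p: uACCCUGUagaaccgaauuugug
miR-196a-5p: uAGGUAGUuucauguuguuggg
miR-196b-5p: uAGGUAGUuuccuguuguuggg
miR-615-3p: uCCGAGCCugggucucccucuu
The miR-10 genes Mir10a and Mir10b share a seed. Mir10a lies beside Hoxb4 and within the annotated bounds of Hoxb3, and Mir10b lies within those of Hoxd3 and Hoxd4. The mature arms of Mir10a lay 65.5 to 65.6 kb from the nearest edge in replicate 1 and 59.95 to 59.99 kb in replicate 2, and those of Mir10b lay 32.3 to 32.4 and 45.6 to 45.7 kb from it. The miR-196 genes, which also share a seed, were Mir196b in Hoxa (88.7 to 88.8 and 70.3 kb), Mir196a-1 in Hoxb (18.6 and 19.1 to 19.2 kb) and Mir196a-2 in Hoxc (86.1 to 86.2 and 81.7 to 81.8 kb). Mir615 in Hoxc lay 56.5 to 56.6 and 56.1 to 56.2 kb inside.

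Promoter sequence varied widely among the covered genes. Over the 300 bases of the RefSeq window, the 24 members with an entry held 4 to 45 CpG with a median of 13.5, against a median of 20 for 1420 other coding genes named by a promoter region in both replicates and 14 for all 17274 coding genes of the table. Hoxa13 had the most (45), followed by Hoxd13 (37), and Hoxa9, Hoxd4 and Hoxd11 had the fewest (4 each). The 8 flanking genes without a region held 16 to 34 with a median of 26.5. GC content was 39.7 to 81.0% in members and 55.3 to 75.3% in the 8 flanking genes. Coding genes named by no promoter region held a median of 12 CpG, lower than the 8 flanking genes. The ranges of members and flanking genes overlapped for both measures.

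**Figure D4:**
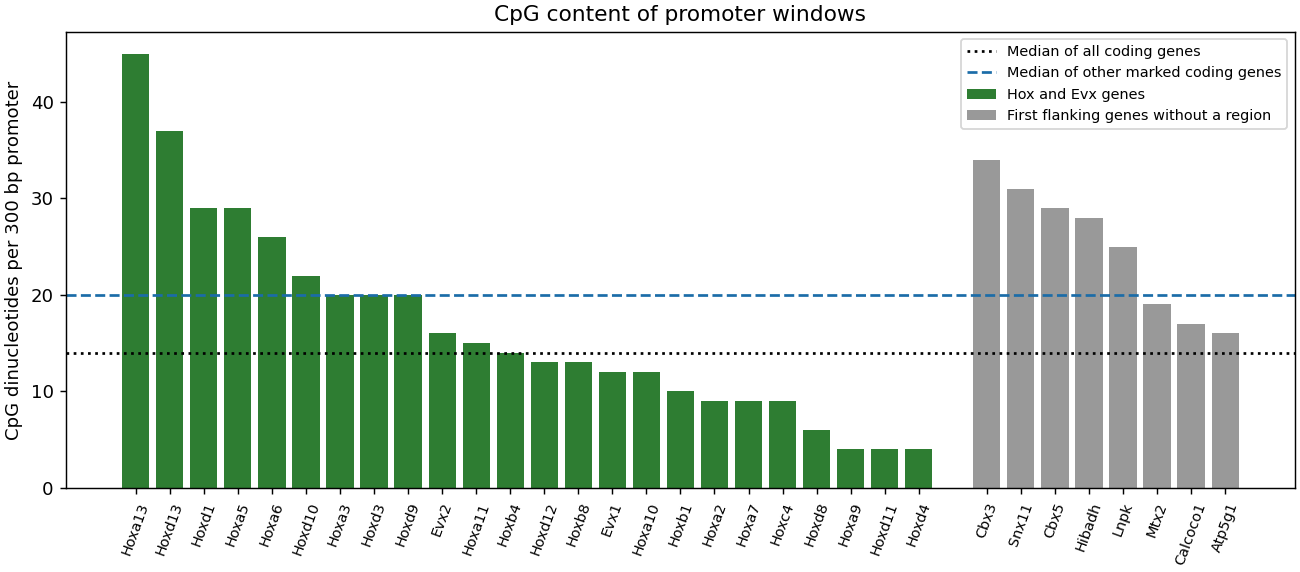
CpG dinucleotides in the 300 bp promoter window of 24 member genes (green) and of the first flanking gene without a region at each of the 8 edges (grey). Members range from 4 to 45 and flanking genes from 16 to 34, and lines show the medians of all coding genes (14) and of other marked coding genes (20).

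Lists of genes that work with or upstream of Hox genes were covered unevenly. Of 6 ParaHox and Cdx genes, relatives of the Hox genes that act in gut, pancreas and brain, 5 were named by a promoter region in both replicates, beside the background of 8.82%. Gsx1, Gsx2, Pdx1 and Cdx2 were covered in full in both, in promoter regions of 12.7 to 33.7 kb, and Cdx4, on X, had no region. Of 9 Hox cofactors of the Meis, Pbx and Pknox families, which bind DNA with Hox proteins, 2 were named, Meis2 (10.7 and 8.72 kb) and Pknox2 (14.4 and 16.0 kb), and none was covered in full. Of 7 retinoic acid genes, whose signal activates anterior Hox genes in embryos, 5 were named. They were the retinoic acid degrading enzymes Cyp26a1, Cyp26b1 and Cyp26c1, the synthesising enzyme Aldh1a2 and the receptor Rara.

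Of 7 epithelial markers, Krt15 was named in both replicates and Krt5 in replicate 2 alone, while Epcam, Krt14, Trp63, Cdh1 and Itga6 were named in neither. Among markers of other cell types, 5 of 6 mesenchymal, 3 of 6 skeletal muscle, 3 of 4 neuronal and glial, 0 of 3 endothelial and 1 of 2 immune genes were named in both. For all these lists, the share of all coding genes named in both was 8.82%. The lists are short and no test against that share was made, so differences from it are only described. These lists describe where the mark lay and do not measure the share of other cells in the sort, whose part in the Hox values was not tested.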

How the data were processed

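The deposited lists of 2 H2AK119ub replicates hold start and end coordinates (mm10 per the labels), a location class and gene names. Per the submitters' processing notes, the tools included Bowtie2 (2.3.3) and SAMtools (0.1.19). Which program called the regions, at what threshold, whether input was subtracted and whether starts count from 0 is not given in the sources used here. Signal closer than about 1000 bp may stand as 1 region, so short breaks depend on that step.

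Gene bounds, promoter windows and microRNAs came from RefSeq tables of GRCm38.p6, which has the coordinates of mm10. Names were matched by symbol, then by a synonym held by 1 gene, then by gene ID. Promoter starts were found for 24 of the 40 members. Overlap was counted from 1 bp. A domain edge is the outermost coordinate of the member regions of a cluster. A flanking gene was called free when no region overlapped its bounds in either replicate. Free flanking genes were judged on gene bounds, so a region upstream of a start does not count.

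Named genes were the 40 members, genes inside the domains, up to 3 coding genes a side and the pathway lists, of which the Polycomb and Trithorax list is not reported here. Gene families in the closing section and Ifnz were chosen after their values were seen. The members, lists and rules were chosen with earlier results of these data known, and no test was made over them. Coverage code was checked on simulated intervals. Python 3.11.15, numpy 2.4.6, pandas 2.3.3 and matplotlib 3.10.9 were used.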

Additional observations from a re-analysis of the deposited data

How the results depend on the processing

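The counts of 40 members named in both replicates and of 40 covered in full stayed at 40 under each alternative run for them. These were a region of any location class, looser rules on gene bounds, regions above the median width and either replicate alone. None of them could lower the counts. All 40 members already met the stricter rule in both replicates, in regions wider than the list medians of 4864 and 4219 bp. Coverage of Hoxa, Hoxb, Hoxc and Hoxd, at 99.4% ± 0.82, 81.6% ± 3.44, 100% ± 0 and 99.5% ± 0.64 (SD, n = 2), moved by no more than the SD, except that widening the Hoxd span by 10000 bp on each side gave 97.4%. With n = 2, leaving out a replicate can never move the mean by more than the SD, so that setting is no check of stability. Domain widths rest on which neighbours are joined. Joining regions closer than 5000 bp moved the mean width to 203, 251, 206 and 138 kb for Hoxa, Hoxb, Hoxc and Hoxd. Without joining these were 188 ± 5.80, 222 ± 13.2, 182 ± 3.40 and 132 ± 0.11 kb (SD, n = 2). The Hoxd SD is small because both edges shifted the same way between replicates, by 1.61 and 1.45 kb. Joined at 5000 bp, replicates 1 and 2 parted more at Hoxb (290 and 213 kb), Hoxc (226 and 186 kb) and Hoxd (145 and 132 kb). At Hoxa they gave 207 and 199 kb. Joining below 20000 bp gave 232, 356, 314 and 138 kb. Of the 3 clusters with a break between their outermost members in either replicate, 1 (Hoxb) remained for breaks of at least 5000 bp and 1 for breaks in both replicates, while each replicate alone had 2. The Hoxd break of replicate 2 lies outside the members and is not counted. The median distance to the first free gene over the 8 edges was 144 kb for coding genes and 97.2 kb when noncoding genes counted too. With free defined as not named by a promoter region in both replicates the median stayed at 144 kb, but Snx10 at 552 kb replaced Cbx3 at 659 kb (mean distance of both replicates) and Ttll6, which overlaps the domain, replaced Atp5g1. Leaving out a replicate gave 143 to 145 kb. No paired analysis was possible because the replicates form a single group with no second group to pair with. The lists hold no heights, so a region just under the calling limit cannot be told from none.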

Other observations

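Several gene families have members within 1000 kb of more than 1 Hox cluster, which is what beside means in this section. Their coverage was read for this reason after the values around the clusters had been seen. The ATP synthase subunit genes Atp5g1, Atp5g2 and Atp5g3, beside Hoxb, Hoxc and Hoxd, had no region over them in either replicate. The same held for the heterochromatin protein genes Cbx3, Cbx1 and Cbx5, beside Hoxa, Hoxb and Hoxc, and for the RNA-binding protein genes Hnrnpa2b1, Hnrnpa1 and Hnrnpa3, beside Hoxa, Hoxc and Hoxd. Having no region in either replicate was the state of 77.1% of all coding genes. These 9 genes lay 118.6 to 894 kb from the nearest member.

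The Nfe2 family of transcription factor genes was uneven. Nfe2, the erythroid factor beside Hoxc, was covered to 86.6% in replicate 1 and 51.7% in replicate 2 and named by a promoter region in both. Nfe2l1 beside Hoxb and Nfe2l2 beside Hoxd, which act in stress responses, had no region over them and lay 449 and 910 kb from the nearest member. Nfe2l3, 704 kb from the nearest Hoxa member, was covered to 30.6% in replicate 1 and 2.87% in replicate 2. The pair of Calcoco genes also parted, with Calcoco2 beside Hoxb covered to 61.1% and 47.0% and Calcoco1 beside Hoxc to 0%. No test was made on these families.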
